A study of Homo sapiens with 9 samples.

Results

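Transcripts of 5 caspases, CASP2, CASP6, CASP8, CASP9 and CASP10, and of 3 inhibitors of apoptosis, XIAP, BIRC2 and BIRC3, were examined in Jurkat cells after nanosecond electrical pulses, heat shock or sham exposure. The members were all probe sets, each a group of short array probes that reads 1 or more transcripts, whose gene symbol in the platform's probe table was 1 of these 8. The choice used no measured value and gave 27 of the 54613 probe sets tested. CASP2 and XIAP had 7 probe sets each, CASP10 had 4, CASP8 and CASP9 had 3 each, CASP6 had 2 and BIRC2 had 1. BIRC3 was listed with no probe set of its own in that table, so its level was not analysed here and 7 of the 8 genes carry values.

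Caspases are proteases that are made as inactive precursors and carry out apoptosis, the ordered death of a cell. Initiator caspases are switched on when they are gathered on a platform, CASP8 and CASP10 at death receptors on the cell surface, CASP9 at the apoptosome that forms once mitochondria release cytochrome c, and CASP2 at the PIDDosome, and they then cut executioner caspases such as CASP6. XIAP binds active caspases directly, while BIRC2 and BIRC3 are ubiquitin ligases that act mainly at the tumour necrosis factor receptor and keep CASP8 from being engaged there. In lymphocytes the death receptor route is a way in which activated T cells are removed, and Jurkat cells have long served as a model of it.

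The 9 samples were all Jurkat cells, a human T lymphocyte line that descends from 1 leukaemia, and each group held 3 samples that the labels call biological replicates. One group received nanosecond electrical pulses (nsEP), 100 pulses of 10 ns at 150 kV/cm, one received heat shock, and the control group was sham exposed. All samples had been held in an electroporation cuvette, and RNA was taken 4 h after exposure. The labels do not say whether replicates came from separate cultures, so the p-values measure the spread between these samples. The study compared nsEP with sham to find the response to the pulses, and used heat shock as a control for stress and apoptosis.

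The arrays gave 1 log2 signal per probe set. The labels were checked with HSPA6, an inducible heat shock chaperone, which was higher than sham by 8.77 after heat shock and by 1.39 after nsEP (adjusted p = 1.01e-08 and 0.208). With 1 array left out the adjusted p for nsEP ran from 0.00590, without nsEP replicate 1, to 0.554. Of 16 alternatives 15 left HSPA6 uncalled after nsEP. The labels were also checked with FOS, an immediate early transcription factor, which was higher than sham by 7.27 after nsEP and by 9.20 after heat shock (adjusted p = 3.25e-06 and 5.96e-08). FOS averaged 3.07 in sham samples, in the range of the dimmest quartile of probe sets, so its differences depend on low signals, and they were 5.02 and 6.92 with 32 signal units added to every value. All 12 T cell markers were measured, at a median level of 11.87, and after heat shock 3 of them, TRAT1, CD2 and CD28, fell by 2.16, 1.79 and 1.01, where 5.71% of all genes were called at their brightest probe set. The ratios of the 12 ran from -2.16 to 0.38, with a median of -0.09. Of 8 myeloid markers 5 were measured, none at 0, and their summed signal was 315 to 358 units in nsEP, 567 to 692 in heat shock and 304 to 347 in sham arrays. Without CD14 the sums were 306.7 to 350.5 in nsEP, 394.8 to 555.5 in heat shock and 296.9 to 345 in sham arrays. All 5 ratios of heat shock to sham were above 0, and CD14 alone passed the threshold, with a mean of 7.07 after heat shock and 2.29, in the range of the dimmest quartile, in sham samples (ratio 4.78, or 2.16 with 32 signal units added). LYZ had a ratio of 2.77 (adjusted p = 0.0821), and LYZ and MPO averaged 4.80 and 5.80, under the median of all probe sets at 6.33. The B cell markers summed to 1114 to 1624 units in nsEP, 1109 to 1601 in heat shock and 887 to 1235 in sham arrays, with 6 of 7 measured. The part of these markers in the results below was not tested. The array of nsEP replicate 3 stood apart on the second principal component, at 172.6 against -62.6 to 30.6 on the other 8.

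After nsEP none of the 27 probe sets passed the threshold against sham, whereas after heat shock CASP8 and XIAP fell to less than 50% of their sham signal at the probe set that stands for each gene, the brightest one. Both were also higher in nsEP than in heat shock samples, and CASP6 was lower in nsEP than in heat shock samples at 1 of its 2 probe sets, a call that ended or turned direction in 9 of 16 alternatives. The 2 contrasts with heat shock share the same 3 heat shock arrays and are not independent of each other.

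**Figure D1:**
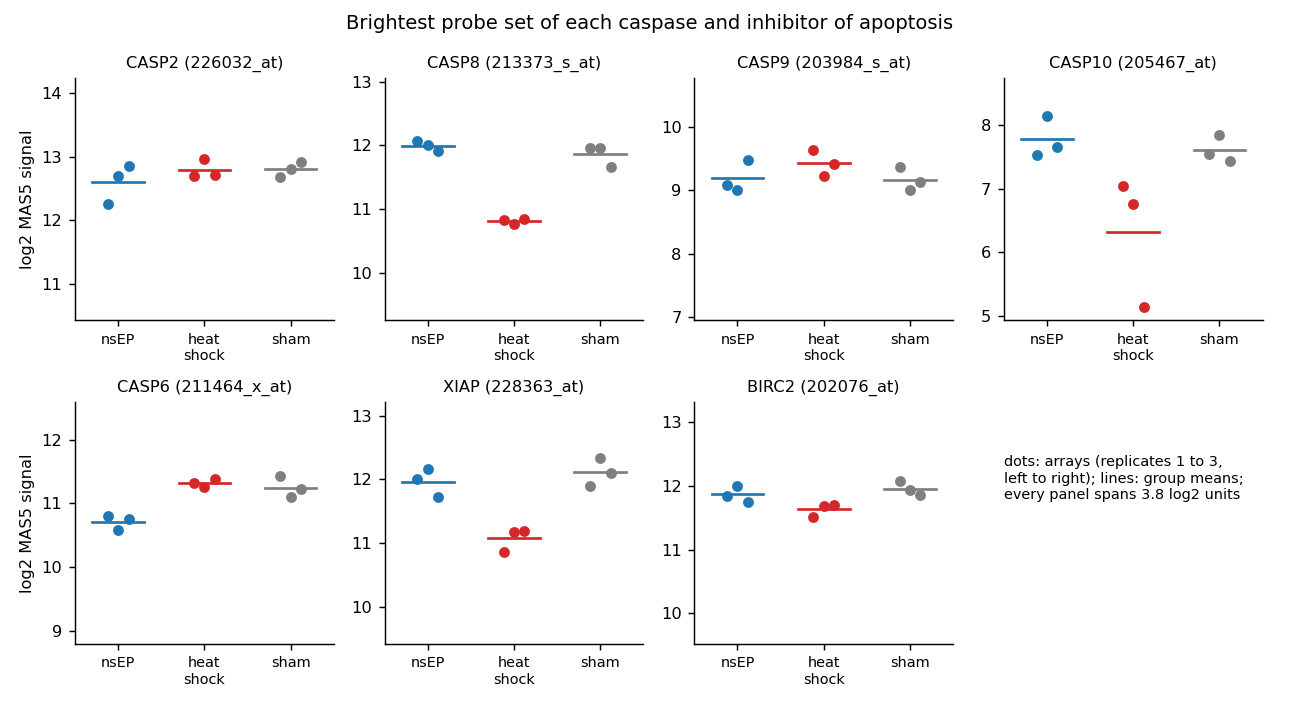
Log2 signal of the brightest probe set of each measured member on the 9 arrays, with nsEP left, heat shock in the middle and sham right. Dots are arrays, lines are group means, and every panel spans the same number of log2 units on an axis that does not start at 0. The 3 heat shock arrays lie apart from all others for CASP8, CASP10 and XIAP, and the 3 nsEP arrays lie lowest for CASP6.

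Of the 27 probe sets 0 were called in nsEP against sham at an adjusted p under 0.05 (limma, Benjamini-Hochberg over all probe sets), where 0.0586% of all probe sets were called. At an unadjusted p under 0.05 there was 1, CASP6 211464_x_at, beside 7% of all probe sets, and the methods' t-test also gave 0 after adjustment and 1 before. In 2 of the 27 the nsEP and sham arrays did not overlap, both lower after nsEP, against 11.6% of all probe sets. The median log2 ratio of the 27 was -0.03, with a range of -0.54 to 1.24, beside -0.01 over all probe sets.

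Heat shock against sham gave 2 calls among the 27, or 7.41%, both lower, beside 4.17% of all probe sets, 2.36% called lower, and 9.86% in the brightest quartile of signal, which holds 15 of the 27. The groups did not overlap in 9 of the 27, 8 lower and 1 higher after heat shock, which is 33.3% beside 26.5% of all probe sets. The share of members called thus lay between that of all probe sets and that of the brightest quartile. In all, 21 of the 27 had a ratio under 0, and their median was -0.31, where the median was 0.18 over all probe sets and -0.03 over the brightest quartile.

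In nsEP against heat shock 3 of the 27 were called, 2 higher and 1 lower, or 11.1%, beside 4.96% of all probe sets, 2.31% called higher and 2.65% lower, and 10.5% of the brightest quartile. The groups did not overlap in 8 of the 27, or 29.6%, beside 23.1% of all probe sets. The median log2 ratio was 0.41, against -0.18 over all probe sets.

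**Figure D2:**
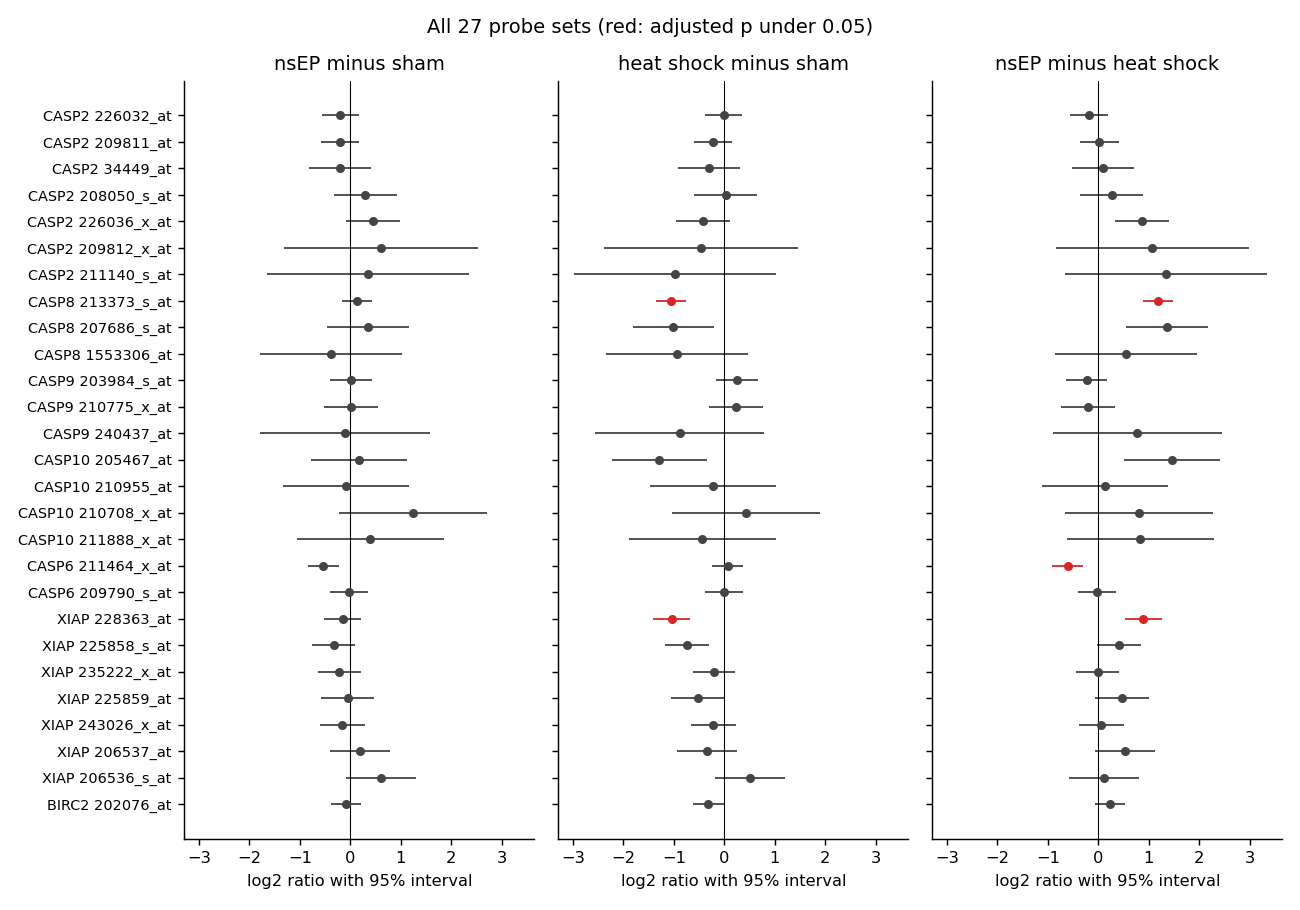
Log2 ratio with its 95% interval for each of the 27 probe sets in nsEP minus sham, heat shock minus sham and nsEP minus heat shock, on a common axis. Red marks an adjusted p under 0.05, which occurs for 0, 2 and 3 probe sets, and the widest intervals belong to probe sets outside the brightest quartile.

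CASP8, the initiator caspase of the death receptors, read 12.08, 12.01 and 11.91 in nsEP samples, 10.82, 10.76 and 10.84 in heat shock samples and 11.95, 11.96 and 11.66 in sham samples at 213373_s_at. The 3 heat shock values lay within 0.1 of each other and below every other array, while the nsEP and sham values overlapped. After heat shock CASP8 fell by 1.05 on the log2 scale, 2.07-fold (SE 0.14, n = 3 against 3, 95% interval -1.35 to -0.75, adjusted p = 0.000958). In nsEP it was 2.28-fold higher than in heat shock samples, a ratio of 1.19 ± 0.14 (adjusted p = 0.000409). Against sham the nsEP ratio was 0.14 ± 0.14, with an interval of -0.16 to 0.44 (adjusted p = 0.919), so that a change in either direction beyond these bounds lay outside the interval. In such bulk RNA a lower signal cannot tell fewer cells with the transcript from less transcript per cell.

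The other CASP8 probe sets pointed the same way after heat shock without passing the threshold. Probe set 207686_s_at read 9.16, 9.24 and 7.76 in nsEP samples, 7.33, 7.56 and 7.19 in heat shock samples and 7.88, 8.37 and 8.86 in sham samples, with heat shock below all others. Its ratios were -1.01 for heat shock against sham and 1.36 for nsEP against heat shock (adjusted p = 0.168 and 0.0563). Probe set 1553306_at was dim and scattered, with heat shock samples at 5.87, 4.34 and 7.56, and a ratio of -0.93 to sham (adjusted p = 0.488). The 3 CASP8 ratios of heat shock to sham thus ran from -1.05 to -0.93.

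The RefSeq promoter windows of CASP8, 250 bases before to 50 bases after an annotated start on GRCh38.p14, are shown for the 2 of its 3 starts that held a motif searched, since CASP8 had the lowest adjusted p of the members after heat shock. Capitals mark matches to the heat shock element core GAANNTTC or to the AP-1 motif TGANTCA, the site of FOS and JUN dimers. Which start Jurkat cells use was not measured by the array.
CASP8 start 2, chr2:201257785-201258084, plus strand: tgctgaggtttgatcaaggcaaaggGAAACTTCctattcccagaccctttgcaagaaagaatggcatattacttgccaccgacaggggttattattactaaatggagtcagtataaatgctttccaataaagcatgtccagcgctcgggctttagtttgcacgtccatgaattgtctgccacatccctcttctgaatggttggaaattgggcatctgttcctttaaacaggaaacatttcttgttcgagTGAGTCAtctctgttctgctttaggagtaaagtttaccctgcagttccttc
CASP8 start 3, chr2:201260286-201260585, plus strand: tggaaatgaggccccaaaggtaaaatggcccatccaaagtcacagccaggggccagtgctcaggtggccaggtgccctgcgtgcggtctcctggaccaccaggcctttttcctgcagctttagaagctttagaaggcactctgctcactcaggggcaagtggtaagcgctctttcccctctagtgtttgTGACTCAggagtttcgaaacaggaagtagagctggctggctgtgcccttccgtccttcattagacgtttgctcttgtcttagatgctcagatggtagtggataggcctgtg
In the window of start 2, GAAACTTC began at -225 and TGAGTCA at -1, and in that of start 3 TGACTCA began at -61, counted from the start. Over all 35116 windows of this length, GAANNTTC was found in 6.77%, the other orientation of the core, TTCNNGAA, in 7.74% and TGANTCA in 7.71%. A match describes the letters and is no measured site. CASP8 start 1 held none of the motifs searched on either strand.

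CASP10, the close relative of CASP8 at the same receptors, read 7.53, 8.15 and 7.66 in nsEP samples, 7.05, 6.76 and 5.14 in heat shock samples and 7.55, 7.84 and 7.43 in sham samples at 205467_at. All heat shock values lay below all others, but they spread over nearly 2 log2 units, and heat shock replicate 3 was lowest. The ratio of heat shock to sham was -1.29 ± 0.44 (adjusted p = 0.132) and that of nsEP to heat shock 1.46 ± 0.44 (adjusted p = 0.0790), neither past the threshold. Without heat shock replicate 3 they were -0.70 and 0.87. This was the only 1 of the 4 CASP10 probe sets with a mean above the median of all probe sets. The other CASP10 probe sets gave heat shock to sham ratios of -0.44, -0.22 and 0.42. Against sham, nsEP gave 0.17 ± 0.44, with an interval of -0.77 to 1.12. This was the widest among the 7 probe sets that each stand for a member. In RefSeq's gene order CASP10 lies between CFLAR and CASP8 on chromosome 2, and CFLAR, which codes for the caspase-like inhibitor FLIP, had a ratio of 0.18 in nsEP and -0.06 in heat shock against sham (adjusted p = 0.919 and 0.893).

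**Figure D3:**
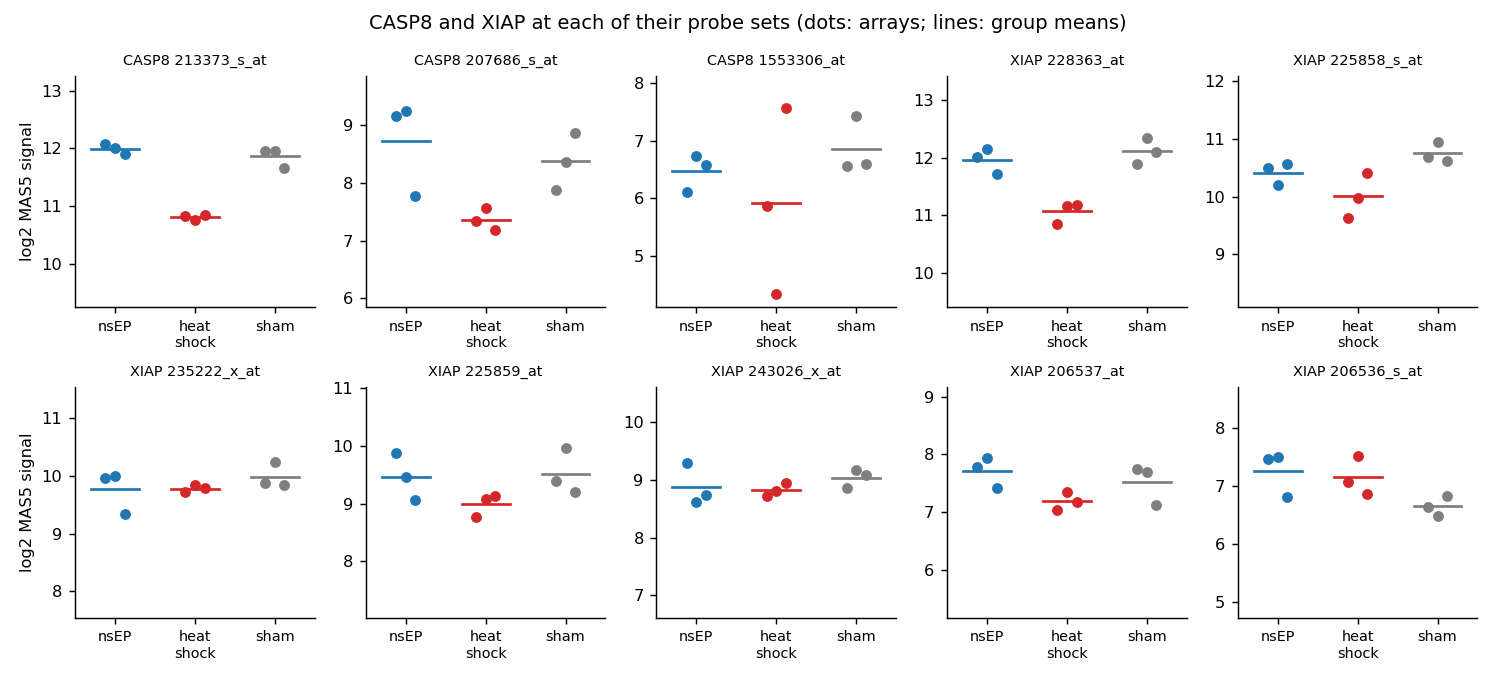
Log2 signal of the 3 CASP8 and 7 XIAP probe sets on each array, with nsEP left, heat shock in the middle and sham right, dots for arrays and lines for group means. The axes differ between panels and do not start at 0. Heat shock lies lowest at CASP8 213373_s_at, CASP8 207686_s_at and XIAP 228363_at, and highest values at XIAP 206536_s_at belong to nsEP and heat shock samples.

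CASP9, the initiator caspase of the apoptosome, read 9.08, 9.0 and 9.47 in nsEP samples, 9.62, 9.22 and 9.41 in heat shock samples and 9.36, 9.0 and 9.13 in sham samples at 203984_s_at. The 3 groups overlapped. Its ratio to sham was 0.02 ± 0.19 after nsEP and 0.25 ± 0.19 after heat shock (adjusted p = 0.996 and 0.525), with intervals of -0.40 to 0.43 and -0.16 to 0.67. The probe set 210775_x_at gave 0.02 and 0.23, and the dim 240437_at gave -0.11 and -0.88, in the same order.

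CASP2, the caspase of the PIDDosome, read 12.26, 12.70 and 12.85 in nsEP samples, 12.69, 12.96 and 12.71 in heat shock samples and 12.69, 12.80 and 12.92 in sham samples at 226032_at. Apart from a lower value in nsEP replicate 1 the arrays lay together. Ratios to sham were -0.20 ± 0.17 after nsEP and -0.01 ± 0.17 after heat shock (adjusted p = 0.899 and 0.982), and the lowest bound of the 95% intervals was -0.57. The 7 CASP2 probe sets differed widely in spread. At 211140_s_at values ran to 8.47, 8.30 and 5.29 in nsEP samples, 5.53, 6.06 and 6.48 in heat shock samples and 4.82, 7.63 and 8.55 in sham samples. Here nsEP replicate 3 and sham replicate 1 lay far below the other arrays of their own groups, and the same 2 arrays had the largest excess of 3' over 5' ACTB signal, a sign of RNA quality, at 1.24 and 1.26 against 0.31 to 0.79 on the other 7. The part of RNA quality in this was not tested. At 226036_x_at nsEP samples read 9.73, 9.62 and 9.24, heat shock samples 8.71, 8.83 and 8.44 and sham samples 8.58, 9.55 and 9.11, with no overlap between nsEP and heat shock (ratio 0.87 ± 0.24, adjusted p = 0.0636). Among the 7, the ratio of heat shock to sham ran from -0.97 to 0.03, and that of nsEP to sham from -0.21 to 0.61.

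CASP6, the only executioner caspase among the members with values, cuts lamins of the nuclear envelope and can also cut CASP8. At 211464_x_at it read 10.81, 10.58 and 10.75 in nsEP samples, 11.32, 11.26 and 11.38 in heat shock samples and 11.43, 11.10 and 11.23 in sham samples. Every nsEP value lay below every other array, and heat shock and sham overlapped. In nsEP CASP6 was 1.52-fold lower than in heat shock samples, a ratio of -0.61 ± 0.14 (95% interval -0.91 to -0.30, adjusted p = 0.0291). Against sham the ratio was -0.54 ± 0.14 (unadjusted p = 0.00247, adjusted p = 0.360), which is not a call, and heat shock against sham gave 0.07 ± 0.14 (adjusted p = 0.842).

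The second CASP6 probe set, 209790_s_at, did not show this. It read 10.67, 10.31 and 10.13 in nsEP samples, 10.34, 10.53 and 10.31 in heat shock samples and 10.22, 10.42 and 10.55 in sham samples, and the groups overlapped. Its nsEP ratio was -0.03 to sham and -0.03 to heat shock samples (adjusted p = 0.991 and 0.956). The suffix x_at marks a probe set some of whose probes can also match other transcripts. The call on CASP6 also ended when arrays were centred on their median (ratio -0.28, adjusted p = 0.294) or scaled to the poly-A spike-ins (0.33, adjusted p = 0.663), and when any 1 heat shock array or nsEP replicate 2 was left out (adjusted p = 0.0665 to 0.115). The single RefSeq promoter window of CASP6 is shown as that of the member called lower in nsEP than in heat shock samples, with the heat shock element core TTCNNGAA in capitals.
CASP6 start 1, chr4:109703396-109703695, minus strand: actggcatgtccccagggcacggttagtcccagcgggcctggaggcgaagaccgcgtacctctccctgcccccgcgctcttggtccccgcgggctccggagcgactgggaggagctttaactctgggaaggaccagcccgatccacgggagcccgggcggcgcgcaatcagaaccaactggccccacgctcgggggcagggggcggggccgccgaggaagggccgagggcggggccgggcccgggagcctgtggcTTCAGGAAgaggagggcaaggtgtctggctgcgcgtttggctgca
The match TTCAGGAA began at 6 after the start, and no AP-1 or NF-kB match was found in this window.

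XIAP, an inhibitor that binds active CASP9, read 12.01, 12.16 and 11.72 in nsEP samples, 10.86, 11.17 and 11.18 in heat shock samples and 11.89, 12.34 and 12.11 in sham samples at 228363_at. All heat shock values were below all others, and the nsEP and sham values overlapped. After heat shock XIAP fell by 1.04 on the log2 scale, 2.06-fold (SE 0.17, 95% interval -1.41 to -0.67, adjusted p = 0.00422). This call ended with no variance trend (adjusted p = 0.0765) and with the methods' t-test (0.104). In nsEP it was 1.85-fold higher than in heat shock samples, a ratio of 0.89 ± 0.17 (adjusted p = 0.00965). The call in nsEP against heat shock ended in the same alternatives, and also without heat shock replicate 1 (ratio 0.79, adjusted p = 0.0556) and without nsEP replicate 2 (0.79, adjusted p = 0.0504). Against sham the nsEP ratio was -0.15 ± 0.17, with an interval of -0.52 to 0.22 (adjusted p = 0.930).

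The 7 XIAP probe sets did not move as 1. After heat shock 6 of the 7 had a ratio to sham under 0, between -1.04 and -0.20. At 225858_s_at nsEP samples read 10.49, 10.20 and 10.56, heat shock samples 9.63, 9.98 and 10.41 and sham samples 10.69, 10.95 and 10.61, so that both exposed groups lay below sham, by 0.33 after nsEP and by 0.75 after heat shock. Neither difference passed (adjusted p = 0.816 and 0.0595). At 206536_s_at heat shock samples, at 7.07, 7.52 and 6.86, instead lay above sham samples, at 6.64, 6.48 and 6.83 (ratio 0.50 ± 0.32, adjusted p = 0.447). The files do not say which XIAP transcript forms each probe set reads. For XIAP the window of start 1 is shown beside those of CASP8 because both genes fell after heat shock. None of its 3 windows held a motif searched, so no letter is in capitals.
XIAP start 1, chrX:123859458-123859757, plus strand: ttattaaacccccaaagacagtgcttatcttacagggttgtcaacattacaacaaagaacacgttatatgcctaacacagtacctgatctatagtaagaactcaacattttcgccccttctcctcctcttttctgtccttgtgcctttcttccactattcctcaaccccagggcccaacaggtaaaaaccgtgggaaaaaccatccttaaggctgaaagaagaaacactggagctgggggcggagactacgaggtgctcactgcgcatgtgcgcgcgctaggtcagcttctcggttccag
The motifs were those named above and the NF-kB consensus, which was found in 11.3% of all windows. Of the members 7 of 8 matched a RefSeq promoter, CASP10 being the exception, and 5 of their 14 windows held a match. Among those not shown, CASP2 start 2 held GAAAATTC, a match to the core GAANNTTC, at -203 and an NF-kB match at -111. CASP2 had a heat shock to sham ratio of -0.01 at its brightest probe set. The BIRC3 window held NF-kB matches at -199 and -135. The share of all windows with any of these motifs was not computed.

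BIRC2, also called cIAP1, read 11.84, 12.01 and 11.75 in nsEP samples, 11.52, 11.69 and 11.70 in heat shock samples and 12.07, 11.93 and 11.85 in sham samples. The heat shock values were the 3 lowest of all, by a narrow margin. The ratio of heat shock to sham was -0.31 ± 0.14 (unadjusted p = 0.0418, adjusted p = 0.253), and that of nsEP to sham was -0.08 ± 0.14, with an interval of -0.38 to 0.22 (adjusted p = 0.958). BIRC3, its close relative and neighbour on chromosome 11, was not measured under its own symbol.

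The size of the ratios with heat shock, and for some members their direction, depends on how arrays are scaled. CASP8, CASP10, XIAP and BIRC2 kept their direction under all 4 scalings. Over all probe sets the median of heat shock minus sham was 0.18 in the deposited scaling, -0.01 after quantile normalization, -0.13 after centring on the median and -0.83 after scaling to the poly-A spike-ins. Centring and spike-in scaling shift each array by 1 constant, so a ratio taken relative to that median is the same in them as in the deposited scaling. Relative to the median CASP8 stood at -1.23 and XIAP at -1.22 as deposited and at -0.98 and -0.99 after quantile normalization. Without this reference to the median both were called lower under all 4 scalings. CASP10 was called lower under the centred (-1.59, adjusted p = 0.0475) and spike-in scalings (-2.30, adjusted p = 0.0327), and BIRC2 under the centred one (-0.62, adjusted p = 0.0261). CASP6 relative to the median of nsEP minus heat shock stood at -0.43 as deposited and at -0.70 after quantile normalization.

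The poly-A spike-ins, bacterial transcripts added to the RNA before labelling, also set some arrays apart. Their level was 10.05, 10.18 and 11.36 on nsEP arrays, 11.34, 11.23 and 11.82 on heat shock arrays and 10.90, 9.92 and 10.54 on sham arrays. The 4 arrays of lowest spike-in level, nsEP replicates 1 and 2 and sham replicates 2 and 3, were also the 4 highest arrays in 6 of the 27 member probe sets, which is 22.2%, beside 2.51% of all probe sets. These 6 were 4 of the 7 CASP2 probe sets, CASP8 207686_s_at and XIAP 228363_at. The Pearson correlation of signal with spike-in level over the 9 arrays, which share groups and scaling, was at or below -0.8 in 4 of the 27, or 14.8%, beside 2.53% of all probe sets. It was -0.85 at XIAP 228363_at, -0.88 at CASP8 207686_s_at and -0.74 at CASP8 213373_s_at. The heat shock arrays and nsEP replicate 3 had the 4 highest spike-in levels, so heat shock and a high spike-in level largely coincide. At CASP8 213373_s_at nsEP replicate 3, whose spike-in level was that of heat shock arrays, read 11.91 and stayed with the other nsEP arrays, and for XIAP 228363_at the same array read 11.72, above all heat shock values and below the other nsEP and all sham values. The 4 arrays of lowest spike-in level, nsEP replicates 1 and 2 and sham replicates 2 and 3, also differed in the ACTB sign of RNA quality. Their excess of 3' over 5' ACTB signal was the smallest, at 0.31, 0.37, 0.58 and 0.52, against 0.62 to 1.26 on the other arrays. The same excess for GAPDH did not set them apart, at -0.22, -0.11, -0.05 and 0.21, against -0.06 to 0.56 on the other arrays. The parts of the spike-in level and of RNA quality in the calls were not tested.

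**Figure D4:**
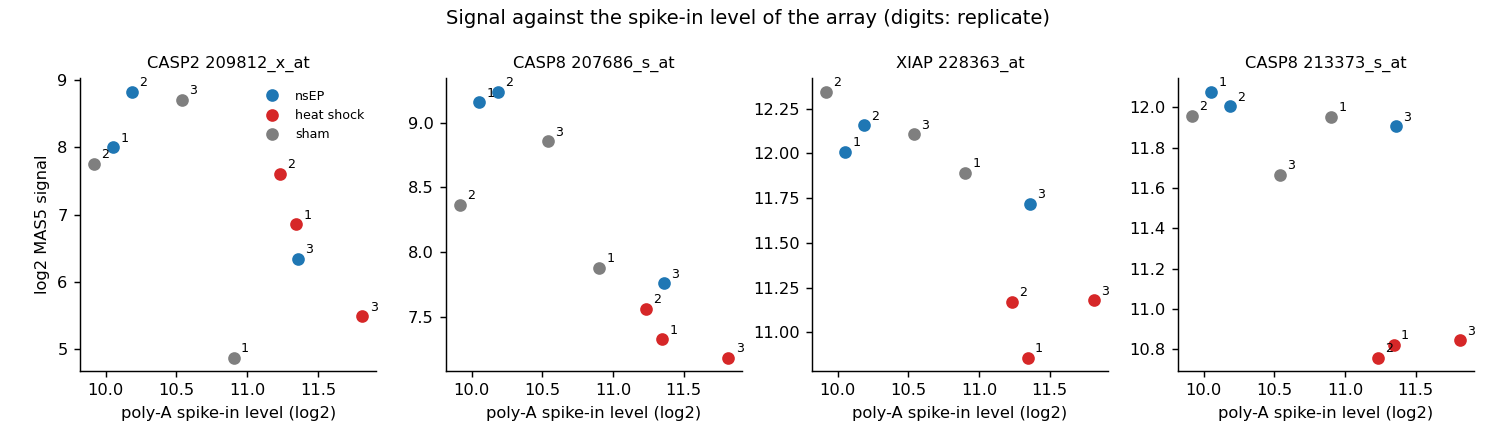
Log2 signal of 4 member probe sets against the poly-A spike-in level of each array, both on log2 axes, with digits for the replicate. At CASP8 207686_s_at nsEP replicate 3, the nsEP array of highest spike-in level, reads 7.76 against 9.16 and 9.24 on the other nsEP arrays, while at CASP8 213373_s_at nsEP replicate 3 lies at 11.91 beside the other nsEP arrays.

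Over the 9 arrays, the brightest probe sets of other genes most like CASP8 were TEFM, DOP1A and ALG10 (Pearson r of 0.987, 0.987 and 0.986 among 12238 genes searched). For XIAP they were CBLL1, ZNF121 and VKORC1L1 (0.994, 0.990 and 0.985), and for CASP6 GAS6-AS1, FTX and FAM106A (0.943, 0.933 and 0.933). These correlations describe arrays that share groups and scaling, and the highest of so many is high by selection.

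Among the partners of the members in the pathway, 31 of 36 listed genes had a probe set, and after nsEP 0 of the 31 were called against sham, with a median ratio of -0.04, where 0.0607% of all genes were called at their brightest probe set. After heat shock 1 of the 31 was called, FADD, and the median was 0.03, beside the 5.71% of all genes called. FADD is the adaptor that ties CASP8 and CASP10 to death receptors. It read 11.12, 10.85 and 10.71 in nsEP samples, 8.98, 8.22 and 8.73 in heat shock samples and 10.96, 10.78 and 10.79 in sham samples. The heat shock values lay over 1 log2 unit below all others. FADD fell by 2.20 on the log2 scale after heat shock, 4.59-fold (SE 0.20, adjusted p = 6.05e-05), and was higher in nsEP than in heat shock samples by 2.25 ± 0.20 (adjusted p = 6.48e-05), in a comparison that called 5.99% of all genes. Its nsEP ratio to sham was 0.05 ± 0.20 (adjusted p = 0.986). TRADD, the adaptor of the tumour necrosis factor receptor, had a heat shock ratio of -0.81 ± 0.22 (adjusted p = 0.0576). Its nsEP ratio to sham was also under 0, at -0.63 ± 0.22 (adjusted p = 0.562). Between nsEP and heat shock samples the TRADD ratio was 0.19 ± 0.22 (adjusted p = 0.698).

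The remaining partner lists held 0 calls in any of the 3 comparisons. These were the caspases outside the members, with 4 measured, the other proteins with a BIR domain, the fold that defines inhibitors of apoptosis, with 4 of 5, the antagonists of those inhibitors, with 5 of 5, and caspase substrates, with 10 of 10. BIRC5, known as survivin, had ratios to sham of 0.02 after nsEP and 0.12 after heat shock, and DIABLO, which frees caspases from XIAP, 0.25 and 0.02, in the same order. PARP1, a nuclear substrate of caspases, had 0.02 and 0.07. Intervals of these levels say nothing of caspase activity, which is set by cleavage of the proteins and was not measured by the arrays.

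**Figure D5:**
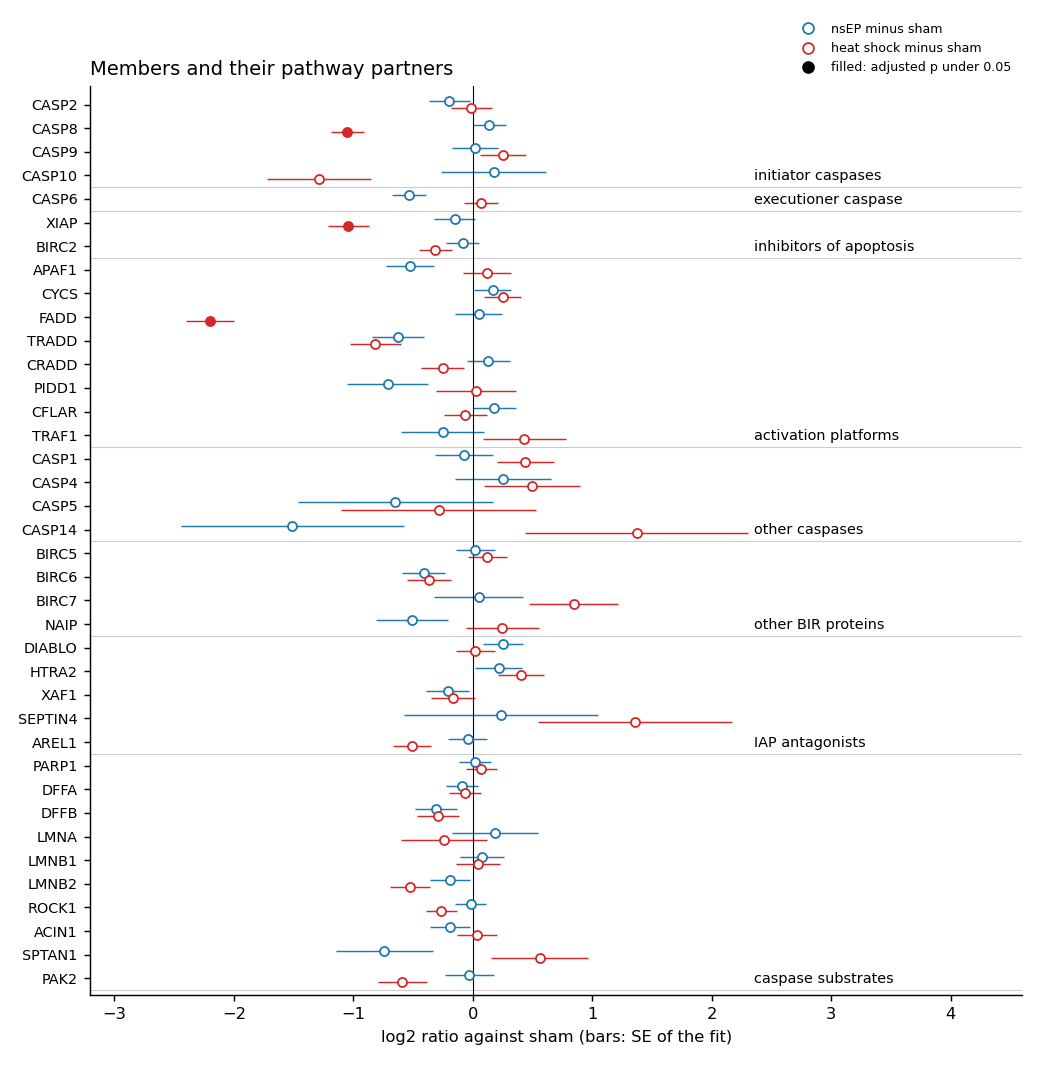
Log2 ratio to sham of the 7 measured members and 31 partner genes after nsEP (blue) and heat shock (red), each at its brightest probe set, with bars for the SE of the fit. Filled dots mark an adjusted p under 0.05, which occurs for CASP8, XIAP and FADD, all after heat shock and all lower.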

How the data were processed

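RNA of 9 Jurkat samples, 3 each of nsEP, heat shock and sham, was labelled with biotin and hybridised to Affymetrix human genome U133 Plus 2.0 arrays. The authors summarised probes with MAS5 and deposited log2 values of its signals, scaled to a common trimmed mean (computed from the values, 500.1 units on each array without the lowest and highest 2%). Gene names came from the platform's probe table and RefSeq. Of 54675 probe sets 62 controls were set aside, which left 54613, of which 41091 had 1 symbol, 1801 several and 11721 none listed. A gene stands for its probe set of highest mean signal.

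One model with 1 mean per group was fitted to the 9 arrays in limma 3.58.1 (R 4.3.3) with lmFit and eBayes, a variance trend and two-sided tests. P-values were adjusted by Benjamini-Hochberg over the 54613 probe sets, and calls were made at an adjusted p under 0.05. With 3 arrays against 3 an exact permutation test cannot go below p = 0.1, and the number of arrays limits the precision. Within groups the median SD of a probe set was 1.09 in the dimmest quartile and 0.24 in the brightest. Alternatives were other scalings, 32 signal units added, dim probe sets left out, no variance trend, 6 arrays only, array weights, the replicate number as a block, the methods' t-test and each array left out in turn. The text names all members, up to 2 called genes of each further list for a comparison, the checks HSPA6 and FOS, and the 3 genes most like each called member. Partner genes given without a call were chosen by their role after their values were seen. Members and lists were chosen with earlier results of these data known. Promoter windows came from RefSeq (GRCh38.p14). Protein sequences were not used here.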

Additional observations from a re-analysis of the deposited data

How the results depend on the processing

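Of 336 values of the 7 measured members under the alternatives, 296 kept their direction and their side of the threshold, 15 lost and 7 gained a call, and 18 turned direction, none to a call in the new direction. In nsEP against sham 0 member probe sets were called under every alternative, leaving out arrays included. In heat shock against sham, with 2 calls, there were 5 with arrays centred on the median, 5 with spike-in scaling, 1 with no variance trend and 0 with the methods' t-test, after adjustment or at its own thresholds of p 0.05 and a log2 ratio of 2. Leaving out 1 array gave 2 to 3. In nsEP against heat shock, with 3 calls, there were 7 centred, 6 with dim probe sets left out, 5 with array weights, 1 with no variance trend, 1 with the methods' t-test after adjustment and 0 at its own thresholds. Leaving out 1 array gave 1 to 5, with 5 without nsEP replicate 3 and 1 without nsEP replicate 2 or heat shock replicate 1. The cause was not tested.

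The methods' t-test ended the calls on CASP8 (adjusted p = 0.0554), XIAP (0.104) and FADD (0.0606) after heat shock, and no variance trend that on XIAP (0.0765). In nsEP against heat shock the methods' t-test ended those on XIAP (0.155) and FADD (0.0878), and no variance trend that on XIAP (0.0974). CASP8 was called there under every alternative judged by adjusted p, though not at the t-test's own thresholds. The call on CASP6 there also ended with only the 6 arrays (0.0578), no variance trend (0.160) and the methods' t-test (0.0986).

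Turned were CASP9 in nsEP against sham (-0.060 with spike-in scaling, -0.038 with array weights, -0.12 to 0.12 with 1 array left out) and in heat shock against sham (-0.053 centred, -0.76 with spike-in scaling), and CASP6 in heat shock against sham (-0.24 centred, -0.94 with spike-in scaling, -0.0073 to 0.16 with 1 array left out) and in nsEP against heat shock (0.33 with spike-in scaling). In nsEP against heat shock CASP2 gave 0.14 centred and 0.75 with spike-in scaling, and CASP9 0.089 and 0.70. With 1 array left out CASP10 in nsEP against sham gave -0.012 to 0.30 and CASP2 in heat shock against sham -0.099 to 0.045. FADD in nsEP against sham gave -0.030 with spike-in scaling and -0.065 to 0.14 with 1 array left out.

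Over all probe sets, 43.4% of calls in heat shock against sham were higher as deposited, 40.5% after quantile normalization, 15.6% centred and 4.70% with spike-in scaling, and in nsEP against heat shock 46.6%, 52.5%, 79.7% and 91.7%. Their number, 32 in nsEP against sham, 2276 in heat shock against sham and 2707 in nsEP against heat shock, was 28, 4571 and 4792 centred, 12, 3257 and 1618 with spike-in scaling, 7, 837 and 1100 with no variance trend, and 0 (3325 unadjusted), 377 and 124 with the methods' t-test. In nsEP against sham it was also 63 with dim probe sets left out, 14 with only 6 arrays and 52 with array weights. With 1 array left out the 3 numbers ran over 15 to 36, 1130 to 1421 and 1343 to 4018.

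The labels do not say whether the replicate numbers pair the samples. Over all probe sets same-numbered arrays deviated together with correlations of -0.07 to 0.05, which cannot exclude pairing, since dim probe sets are mostly noise. With the replicate block the SE in nsEP against sham was 0.265 for FOS and 0.148 for CASP2, beside 0.400 and 0.171 without it. For BIRC2 it was 0.139 in both. Pairing was not tested further. With the replicate block member calls numbered 0, 2 and 3 in the comparisons in the order above. Dim probe sets, 12 of the 27 outside the brightest quartile, carry wide error.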
